A study of Mus musculus with 7 samples.

Results

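In nuclei of mouse visual cortex that had received a pooled AAV library, 285 of 32335 nuclei (0.881%, exact 95% interval 0.782 to 0.989%) held at least 3 UMIs of Atf3, Egr2, Gadd45b and Jun together, from at least 2 of these genes. A UMI (unique molecular identifier) marks a single captured transcript molecule, and only nuclei with more than 200 UMIs outside the viral barcodes were considered. These 285 nuclei, called members below, were thus chosen by the levels of 4 immediate early stress genes, and those levels describe the choice and are not a result. The nuclei came from 1 sample of C57BL/6J mice, given in the labels as male and 6 to 10 weeks old, whose primary visual cortex (V1) was injected with SST PESCA AAV9. PESCA carries many candidate gene regulatory elements in 1 viral pool, each marked by transcribed barcodes, and viral barcode UMIs of a nucleus were read here as its viral load. The sample was sequenced as 10 inDrops libraries, numbered 1-1 to 1-5 and 2-1 to 2-5. The study's methods give 5 libraries from each of 2 animals, but the labels name no animal, and no snRNA-Seq of uninjected mice was analysed here. Nuclei of SST, PV or VIP interneurons from the cortex of uninjected mice of 6 to 12 weeks were profiled separately by ATAC-Seq, with 2 samples for each. These mice carried Sst-IRES-Cre, Pv-Cre or Vip-IRES-Cre with the Cre-dependent nuclear tag SUN1-2xsfGFP-6xMYC, and these samples hold no other cell type. With 1 sample of injected cortex no test between samples was possible, so values are given with exact counting intervals, which cover counting error only, and with the range over the 10 libraries, which are not replicates of a condition.

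Immediate early genes are transcribed within minutes of a stimulus without new protein synthesis, and many of them encode transcription factors that act on later genes. Jun and Atf3 are basic leucine zipper proteins of the AP-1 and ATF families. Egr2 is a zinc finger factor of the Egr family, and Gadd45b is a stress-inducible protein that binds MAP kinase kinases. In cortical neurons some of these genes follow synaptic activity, whereas Atf3 together with Jun is best known from injured or stressed neurons.

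The stretches upstream of the 4 genes that chose the members are shown because the rule rests on these genes alone. Each line below gives the 120 bases before the RefSeq start, 5′ to 3′ on the strand of the gene, in the build GRCm38.p6. Capitals mark matches to the motifs searched in these windows. TGACNTCA, the full cyclic AMP response element only where its N is G, and ACGTCA, a part of that element, were searched on both strands. So were the AP-1 motif TGANTCA, the Egr motif GCGNGGGNG and the CArG box. The TATA box TATAAA was searched on the strand of the gene.
Atf3, chr1:191183334-191183453, minus strand: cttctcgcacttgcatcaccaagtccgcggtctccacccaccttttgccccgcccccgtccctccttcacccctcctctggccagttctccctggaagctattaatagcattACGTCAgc
Egr2, chr10:67537749-67537868, plus strand: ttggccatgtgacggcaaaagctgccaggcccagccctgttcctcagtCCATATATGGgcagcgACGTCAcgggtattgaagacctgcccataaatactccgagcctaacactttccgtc
Gadd45b, chr10:80929971-80930090, plus strand: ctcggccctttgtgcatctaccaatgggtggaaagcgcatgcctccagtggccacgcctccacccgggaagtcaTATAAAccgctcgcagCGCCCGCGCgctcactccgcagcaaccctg
Jun, chr4:95052223-95052342, minus strand: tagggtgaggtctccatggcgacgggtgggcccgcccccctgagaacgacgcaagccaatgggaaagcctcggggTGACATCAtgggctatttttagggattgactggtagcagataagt

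The ACGTCA motif lay 8 bases before the start of Atf3 and 56 bases before that of Egr2. Of 32844 RefSeq windows of this length, 4.55% hold it. Egr2 also had a CArG box, the sequence bound by serum response factor, 72 bases before its start, and 0.749% of all windows hold a CArG box. Jun had TGACNTCA at 45 bases, a motif in 5.08% of windows. Its N was A there, so this is not the full cyclic AMP response element. Gadd45b had TATAAA at 46 bases and GCGNGGGNG on the other strand at 30 bases, with 4.19% and 7.21% of windows holding them. TGANTCA had no match in the 4 windows and is in 3.41% of all windows. RefSeq lists 5 starts for Egr2, of which 3 lie within 100 bases, and 1 start for each of the other genes.

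These start sites were open in uninjected interneurons. Reads in the deposited regions at or close to the Jun start site ranged from 37.2 to 55.8 CPM (reads scaled to the total of each sample) in the 6 ATAC-Seq samples, those at Gadd45b from 33.1 to 80.4, and those at Egr2 from 20.1 to 76.6. A called peak lay at or close to each of these 3 start sites in 6 of 6 samples. At Atf3 the values were lower, from 2.24 to 8.88 CPM over 5 to 16 reads, with a peak in 5 of 6 samples. The interneurons tell nothing of other cell classes, and the ATAC-Seq mice received no virus.

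Members were found in every library. The share of nuclei was lowest in library 2-3, at 0.594%, and highest in library 1-1, at 1.14%. Libraries 1-1 to 1-5 together held 179 members among 17656 nuclei (1.01%, 0.871 to 1.17%), and libraries 2-1 to 2-5 held 106 among 14679 (0.722%, 0.592 to 0.873%). The difference between these sets cannot be told apart from that between animals, if the sets are the animals. Total non-viral UMIs of the libraries ranged from 2480128 to 2986442. The median member had 930 UMIs and the median other nucleus 699, so that members were deeper, and a deeper nucleus reaches a fixed number of UMIs more easily. When every nucleus was thinned to 500 UMIs and the rule was applied again, 77 of 20335 nuclei met it (0.379%, 0.299 to 0.473%), with 12000 shallower nuclei left out.

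**Figure D1:**
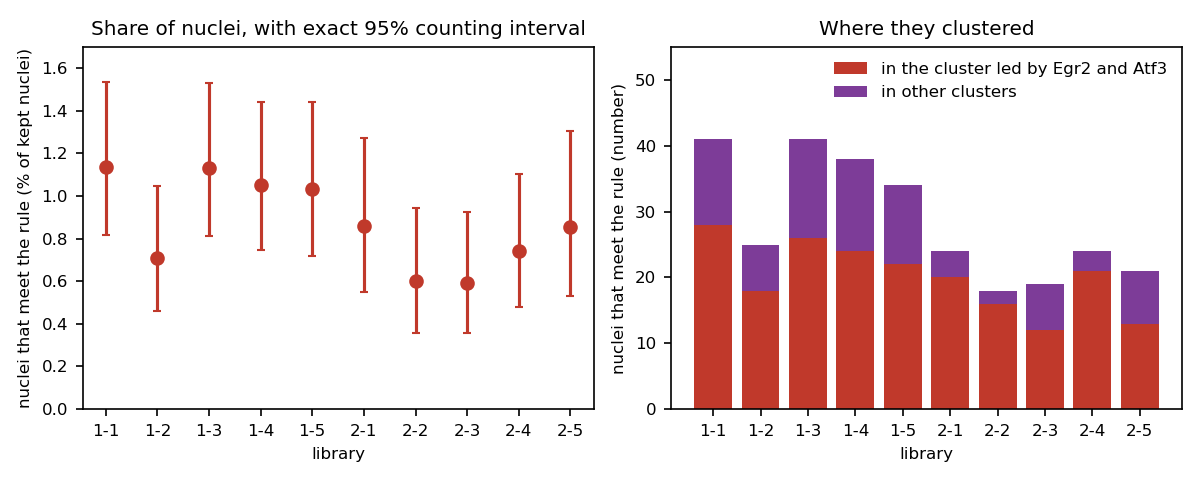
Left, the share of kept nuclei that met the rule in each library, with exact 95% counting intervals; right, the number of members in each library by where they clustered. Shares run from 0.594% in library 2-3 to 1.14% in library 1-1, and the cluster led by Egr2 and Atf3 held most members in each library.

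Jun and Egr2 brought most nuclei into the selection. Of the 285 members, 247 (86.7%) had a UMI of Jun, 215 (75.4%) of Egr2, 164 (57.5%) of Gadd45b and 53 (18.6%) of Atf3. Among other nuclei these shares were 5.47, 3.10, 2.08 and 0.159%. The most common pair was Egr2 with Jun, in 180 members, followed by Gadd45b with Jun in 129 and Egr2 with Gadd45b in 105. Members had 2 of the genes in 190 nuclei, 3 in 81 and all 4 in 14. Although members were less than 1% of nuclei, they held 58.7% of all 150 Atf3 UMIs, 28.0% of those of Egr2, 26.4% of those of Gadd45b and 21.1% of those of Jun.

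The 91 members just inside, with 3 UMIs, had 24.8 Egr1 UMIs per 10000 non-viral UMIs. The 143 nuclei just outside, with 1 UMI of each of 2 genes, had 17.3 per 10000, and the 195 nuclei with 3 or more UMIs of a single gene had 8.61. Members with 6 or more UMIs had 63.6, and the 28728 nuclei with none of the 4 genes had 5.20. Of the 195 nuclei with a single gene, 130 had Jun alone, with 7.45 Egr1 UMIs per 10000. Egr1 is a relative of Egr2 that the rule did not use. Nuclei with UMIs of a single gene thus had lower Egr1 than those with 1 UMI of each of 2 genes. These groups also differed in depth, with medians of 1423 and 952 UMIs. In the Egr1-rich cluster described below were 17.4% of the former and 35.0% of the latter. That share was 90.4% of members with 6 or more UMIs and 1.46% of nuclei with none of the 4 genes.

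Most members fell into 1 cluster. Nuclei were clustered with the rule genes and all stress and activity lists left out, and 200 of the 285 members (70.2%) were in a cluster of 952 nuclei whose leading genes over the other clusters were Egr2, Atf3, Wisp1, Trim17, Gadd45b, Irs2, Sertad1, Jun, Tnfrsf12a and Tiparp. In this cluster 21.01% of nuclei were members (18.5 to 23.7%), from 16.2 to 25.0% by library. By library the cluster took from 61.9% of the members, in library 2-5, to 88.9%, in library 2-2. After thinning to 500 UMIs, 69 of 337 of its nuclei met the rule (20.5%, 16.3 to 25.2%), against 8 of 19998 nuclei elsewhere (0.040%, 0.0173 to 0.0788%). The cluster held 14 of the 14 members with UMIs of 4 genes, 72 of the 81 with 3 and 114 of the 190 with 2.

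The cluster was left unnamed, because no marker list carried it. The 8 excitatory markers summed to 30.5 per 10000 in its members, against 48.8 in excitatory-like nuclei, 24.7 in myeloid nuclei and 19.9 in astrocyte-like nuclei. The last 2 classes should lack them, and what free RNA and mixed droplets gave to these levels was not measured. Baiap2, a postsynaptic scaffold protein on the list, made up much of this sum. Without it the other 7 markers summed to 17.6 (9.92 to 25.0 by library), below the 22.8 of myeloid nuclei and the 41.6 of barcodes with 200 or fewer UMIs. Slc17a7, the vesicular glutamate transporter of cortical excitatory neurons, stood at 1.28 in members of the cluster and at 4.64 in excitatory-like nuclei. The inhibitory list, with Gad1 and Gad2, summed to 1.69 in members of the cluster, against 65.9 in Pv nuclei. Vascular markers summed to 0.358, with 8 of 11 at 0, microglial markers to 0.358, with 3 of 8 at 0, macrophage markers to 0.154, with 5 of 7 at 0, and lymphocyte markers to 0.256, with 4 of 7 at 0. Astrocyte markers reached 6.60 and oligodendrocyte markers 2.61, against 14.0 and 1.73 in excitatory-like nuclei. Rbfox3, which encodes the neuronal nuclear protein NeuN, stood at 3.89 in members of the cluster, 4.76 in excitatory-like nuclei and 4.89 in barcodes with 200 or fewer UMIs. Snap25, a synaptic vesicle fusion protein, stood at 16.7, 22.3 and 22.3. Excitatory-like nuclei did not exceed these barcodes in either gene, so that this comparison cannot tell neurons from other nuclei. The median UMI count of the cluster was 387.5, against 823 for excitatory-like nuclei outside the selection, and its members had a median of 702.5.

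The other 85 members were spread over named classes. Excitatory-like nuclei held 49 of them, 0.230% of 21262 nuclei (0.171 to 0.305%). Their own excitatory markers stood at 45.1 per 10000, beside 48.8 in other excitatory-like nuclei and 24.7 in myeloid nuclei. Of these 49 members 25 were in 1 cluster with layer 2/3 markers, of 3568 nuclei with a median of 1328 UMIs. Another cluster with these markers, of 3185 nuclei with a median of 254 UMIs, held 0. Thinned to 500 UMIs, 1 of 5201 layer 2/3 nuclei met the rule. Markers of the own class were lower in members than in other nuclei of astrocyte-like (137 against 426 per 10000), myeloid (184 against 298) and vascular-like nuclei (116 against 142), and stood at 48.5 against 38.8 in Pv nuclei. Vascular-like nuclei held 17 of 1133 (exact 95% interval 0.876 to 2.39%), and these members had a median of 2502 UMIs. Thinned to 500 UMIs, 1 of 741 vascular nuclei met the rule (0.135%), beside 2 of 475 astrocyte-like nuclei and 1 of 261 myeloid nuclei, so that no order of these classes was detectable at equal depth. In the 17 unthinned vascular members Jun gave 51 of the 72 UMIs of the rule genes, and Egr2 gave 4. Jun stood at 3.61 per 10000 in other vascular nuclei, against 0.630 in excitatory-like ones. Astrocyte-like nuclei held 7 members of 1512, myeloid nuclei 5 of 595, Pv nuclei 3 of 1214, and Sst nuclei and lymphocytes 1 each. The remaining 2 members were in other unnamed clusters.

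Inhibitory neurons and oligodendroglia supplied few members or none. The 4 inhibitory classes together held 4 members among 3040 nuclei (0.132%, 0.0359 to 0.337%). No member was found among 584 Vip nuclei, 332 Npy nuclei, 439 oligodendrocyte precursors or 1225 oligodendrocytes, which, at 3 counts of the total, allows shares of up to 0.514, 0.904, 0.683 and 0.245%. Once thinned to 500 UMIs, 4 of 15187 excitatory-like nuclei (0.0263%, 0.00718 to 0.0674%) and 0 of 2164 inhibitory nuclei met the rule, the latter allowing up to 0.139%. At this depth a difference between excitatory-like and inhibitory nuclei was not detectable. Oligodendrocytes and their precursors were shallow, with medians of 283 and 311 UMIs against 825 in all excitatory-like nuclei. Thinned to 500 UMIs, 0 of 259 and 0 of 101 met the rule, allowing up to 1.16 and 2.97%, so that no difference was detectable for them either.

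Cell barcodes recurred between libraries. Of 25866 distinct barcodes 5476 (21.2%) were in at least 2 libraries, and 81 members (28.4%) shared theirs with a nucleus of another library. The former is a share of barcodes and the latter of nuclei, so these cannot be compared. Without all nuclei whose barcode was in another library 1.00% of nuclei met the rule, beside 0.881% of all nuclei. Members thus shared barcodes less often than other nuclei did. Only 3 barcodes were shared between members of different libraries. No doublet caller was used.

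Compared with other nuclei of their own class and library, members differed in few genes beyond those of the rule. A gene counted as past 2-fold when the UMIs observed in members were at least 2 times, or at most 0.5 times, those expected from the other nuclei, with the same side of 1 in 10 of 10 libraries. Of 3344 genes with enough UMIs, 5 were past 2-fold higher (0.15%) and 2 lower (0.0598%), and the median ratio was 1.04. Nr4a2, an orphan nuclear receptor induced by activity, had 139 UMIs where 48.4 were expected, a ratio of 2.87. Arl4d, a small GTPase of the ARF family, had a ratio of 2.63 (46 against 17.5 UMIs). Nab2, a corepressor that binds Egr proteins and is itself induced with them, had 2.10 (68 against 32.5). Dot1l, the histone H3 lysine 79 methyltransferase, had 2.07, and Adat1, a tRNA adenosine deaminase, had 2.05. Lower were Kcnj3, a G protein-gated potassium channel subunit, at 0.445 (51 against 115 UMIs), and 3110035E14Rik, at 0.500. The minimum was 30 UMIs in members, so that genes scarce in members could not count as lower. Without it 5 of 11087 genes were higher and 141 lower, of which 133 had under 10 UMIs in members and 71 had none. Members were deeper than other nuclei, and when nuclei were compared within bins of depth, only Nr4a2 (2.85) and Arl4d (4.33) of these 7 genes stayed past 2-fold. Nab2 (2.66) was then higher in 9 of 10 libraries, Dot1l stood at 1.94, Adat1 at 1.65 and Kcnj3 at 0.552, and 3110035E14Rik (0.487) was lower in 9. Among nuclei with at most 20 viral UMIs, which left 126 members and 1005 genes, 0 genes were past 2-fold, and the median ratio of the list genes was 1.55 beside 1.44 in all members. For members in the cluster, the reference here was the rest of that cluster.

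Egr1, an immediate early transcription factor, had 68.4 UMIs per 10000 in members of the cluster (64.8 to 72.2, n = 200 nuclei), 44.0 in the other 752 nuclei of the cluster and 6.05 in excitatory-like nuclei. By library the members ranged from 52.3 in library 2-4 to 115 in library 1-5, and excitatory-like nuclei from 5.26 to 6.84. A UMI of Egr1 was in 96.0% of members of the cluster and in 32.8% of excitatory-like nuclei. Barcodes with 200 or fewer UMIs had 7.10 per 10000. Since the cluster was found on the genes of these same nuclei, its difference from other nuclei is a description, and excitatory-like nuclei serve only as the largest class of neurons.

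Over all genes with enough UMIs, 269 of 1657 (16.2%) were past 2-fold higher in members of the cluster than in excitatory-like nuclei and 95 (5.73%) were past 2-fold lower, with a median ratio of 1.45. This balance depended on the minimum of 30 UMIs in members. Without it 287 of 8816 genes were higher and 865 lower, and the median ratio was 0.807. Of the lower genes 616 had under 10 UMIs in members, 300 of them none, and 249 had 10 or more. A gene without UMIs in members counts as lower in each library where any were expected. The lists left out of the clustering held 29 of 49 genes past 2-fold higher and 0 lower, with a median ratio of 4.22. These genes passed the same minimum in members, and genes high in members pass it more easily. Without it 29 of 69 list genes were past 2-fold higher and 0 lower, with a median ratio of 3.87. In nuclei compared within the same bin of depth, 30 of 50 list genes were past 2-fold higher. The other nuclei of the cluster, which did not meet the rule, had 32 of 57 list genes past 2-fold higher than excitatory-like nuclei, where all genes gave 9.15% higher and 3.47% lower.

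**Figure D2:**
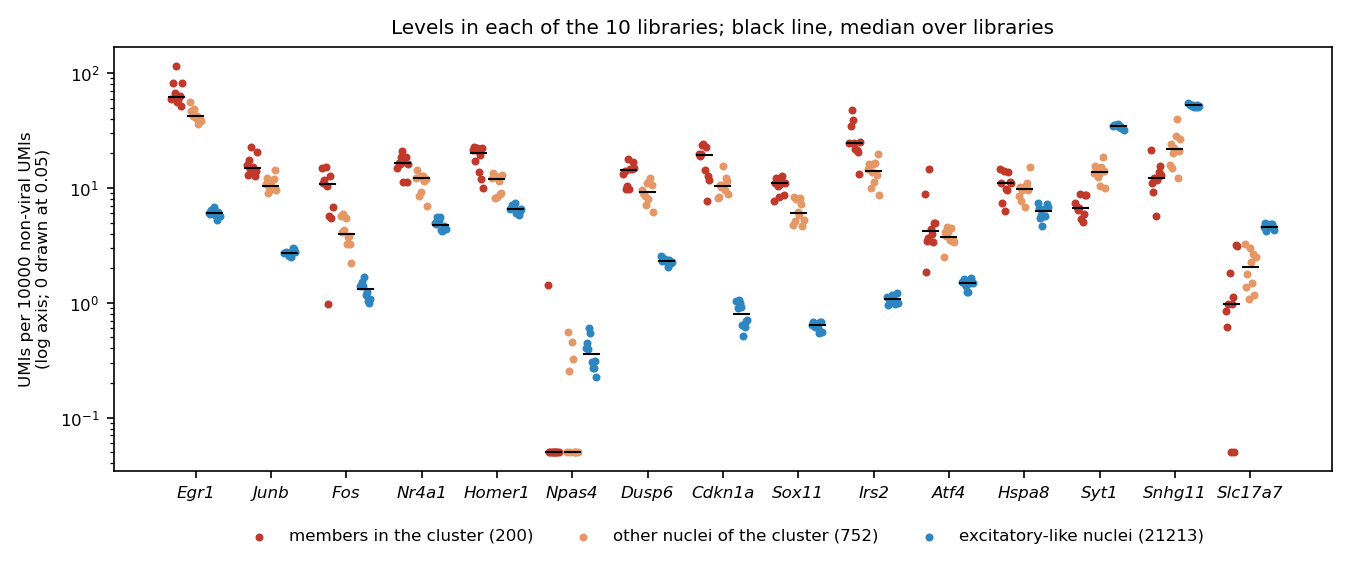
Levels of 15 genes in UMIs per 10000 non-viral UMIs on a log axis; each point is 1 of 10 libraries, and the black lines are medians over libraries for members in the cluster, its other nuclei and excitatory-like nuclei. Egr1, Cdkn1a, Sox11 and Irs2 of the members lie above excitatory-like nuclei in every library, Syt1 and Snhg11 lie below, and Npas4 was at 0 in members of 9 libraries. Over all genes compared, 16.2% were past 2-fold higher and 5.73% lower, each on the same side in every library.

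Some partners of Jun in AP-1 were higher too. Of the 9 genes on the list 5 had enough UMIs, and of these Fosb, Fosl2 and Junb were past 2-fold higher, beside 16.2% of all genes compared. Their ratios were 22.7, 14.4 and 5.95. Junb stood at 16.2 per 10000 in members of the cluster (12.8 to 23.0 by library) and at 2.74 in excitatory-like nuclei (2.50 to 2.99). Fos was at 9.73 against 1.29 but did not count, because members of library 2-1 had 2 Fos UMIs, 0.981 per 10000. The summed level of the 9 AP-1 genes of the list, which leaves Jun out, was 40.2 in members of the cluster, 23.1 in its other nuclei and 6.59 in excitatory-like nuclei.

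Of 22 genes regulated by neuronal activity 16 had enough UMIs, of which 12 were past 2-fold higher in members of the cluster and 0 lower. All genes compared gave 16.2% higher and 5.73% lower. The 12 genes were Bdnf, Btg2, Egr1, Egr4, Homer1, Nptx2, Nr4a1, Nr4a2, Nr4a3, Per1, Ptgs2 and Vgf. The ratio was 11.5 for Nr4a2, 9.59 for Nr4a3, 8.38 for Egr4, 4.49 for Bdnf, a neurotrophin, 3.28 for Nr4a1 and 2.86 for Homer1, which encodes a postsynaptic scaffold. Arc, a synaptic plasticity protein, had 13.2 per 10000 against 5.56, and was higher in 9 of 10 libraries. Npas4, a transcription factor induced in neurons by calcium entry, did not follow, with 5 UMIs in members of the cluster, all in library 1-1, which is 0.256 per 10000 (0.0831 to 0.597) beside 0.374 in excitatory-like nuclei. Egr3 had no UMI in members of the cluster, which allows up to 0.154 per 10000, and 0.00502 in excitatory-like nuclei, so that its level could not be compared.

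Targets of p53, the damage-responsive transcription factor, made the list with the highest summed ratio of members of the cluster over excitatory-like nuclei. It was 7.22, beside 6.18 for AP-1 genes. For all members over other nuclei of their class and library the order was reversed, at 1.61 and 1.80. Of the 13 genes on the list, 5 had at least 30 UMIs in members of the cluster and 3 expected. These 5 were past 2-fold higher, beside 16.2% of all genes compared. A gene with few UMIs expected reaches 30 in members only when it is raised, so that 5 of 5 is partly set by the minimum. The other 8 did not enter, among them Zmat3 with a ratio of 1.55, higher in 6 of 10 libraries, Bax with 2.49, higher in 8, and Eda2r with no UMI. Cdkn1a, which encodes the cell cycle inhibitor p21, stood at 18.0 per 10000 (16.1 to 20.0), from 7.68 to 24.0 by library, against 0.800 in excitatory-like nuclei, from 0.517 to 1.05. The ratio was 21.8 for Cdkn1a, 14.8 for Bbc3, which encodes the pro-apoptotic protein Puma, 7.03 for Plk2, 4.18 for Mdm2, which targets p53 for degradation, and 3.71 for Ccng1. The whole list summed to 49.2 in members of the cluster, 32.3 in its other nuclei and 6.84 in excitatory-like nuclei. Cdkn1a and Plk2 are also induced by other stimuli.

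Of 6 feedback regulators of MAP kinase signalling with enough UMIs, among 11 measured, 4 were past 2-fold higher and 0 lower. The shares over all genes compared were 16.2% and 5.73%. Spry2 had a ratio of 7.95, Dusp14, a dual specificity phosphatase, 7.25, Spred1 6.35 and Dusp6, a phosphatase of ERK, 5.81. Dusp6 stood at 13.6 per 10000 in members of the cluster (9.80 to 17.8 by library) and at 2.32 in excitatory-like nuclei (2.05 to 2.58). The list summed to 68.8, 43.4 and 12.2 in members of the cluster, its other nuclei and excitatory-like nuclei.

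Axon injury genes were higher in part, with 2 of the 4 with enough UMIs past 2-fold higher, beside 16.2% of all genes compared. Sox11, a transcription factor of developing and regenerating neurons, stood at 10.2 per 10000 in members of the cluster (7.68 to 12.8 by library) and at 0.631 in excitatory-like nuclei (0.549 to 0.684), a ratio of 16.2, and Klf6 had a ratio of 4.08. Flrt3 stood at 4.25 and Gap43 at 3.89, against 1.44 and 1.53 in excitatory-like nuclei, without being past 2-fold in every library. Sprr1a and Gal, both strongly induced in injured sensory neurons, had no UMI in members of the cluster, which allows up to 0.154 per 10000 each.

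The integrated stress response, which follows phosphorylation of eIF2 alpha, had 7 of 15 genes with enough UMIs and 2 past 2-fold higher in members of the cluster, Cebpg with a ratio of 5.31 and Atf4 with 4.03, where 16.2% of all genes compared were higher. In the other nuclei of the cluster 7 of 11 genes of this list were past 2-fold higher, among them Atf4, Cebpg and Chac1, beside 9.15% of all genes. The chaperone Hspa5, a gene of the unfolded protein response, stood at 3.33 per 10000 in members of the cluster and 3.52 in excitatory-like nuclei. Ddit3, which encodes Chop, had 25 UMIs, 1.28 against 0.119 per 10000. Of 10 heat shock genes 4 had enough UMIs, and of these 4 only Hsp90aa1 was past 2-fold higher, with a ratio of 2.49, which is 1 of 4 beside the same 16.2%, while the strongly heat-inducible Hspa1a had 2 UMIs, 0.102 per 10000 beside 0.122. The summed heat shock list was 40.2 in members of the cluster, 35.2 in its other nuclei and 22.2 in excitatory-like nuclei. It was 35.3 in oligodendrocytes and 33.5 in lymphocytes, and between 19.2 and 28.1 in the other named classes.

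NF-kB targets and cytokines had too few UMIs for any of the 16 to enter the comparison, and their sum was 1.13 in members of the cluster against 0.935 in excitatory-like nuclei. In members of the cluster 10 of the 16, among them Il1b, Tnf, Il6, Ccl2 and Cxcl10, had no UMI. Interferon response genes summed to 9.21, against 8.76 in the other nuclei of the cluster, 2.75 in excitatory-like nuclei and 60.1 in myeloid nuclei. The summed ratio of members of the cluster over excitatory-like nuclei was 3.35, beside 1.20 for the NF-kB list. The interferon list was higher than in these members in lymphocytes (54.7), vascular-like (33.4) and astrocyte-like nuclei (15.7), oligodendrocyte precursors (11.9) and oligodendrocytes (10.5). It lay between 2.26 and 4.34 in the inhibitory classes. Of the 2 with enough UMIs 0 were past 2-fold in every library, and B2m, the light chain of MHC class I, stood at 2.71 against 1.06 per 10000.

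**Figure D3:**
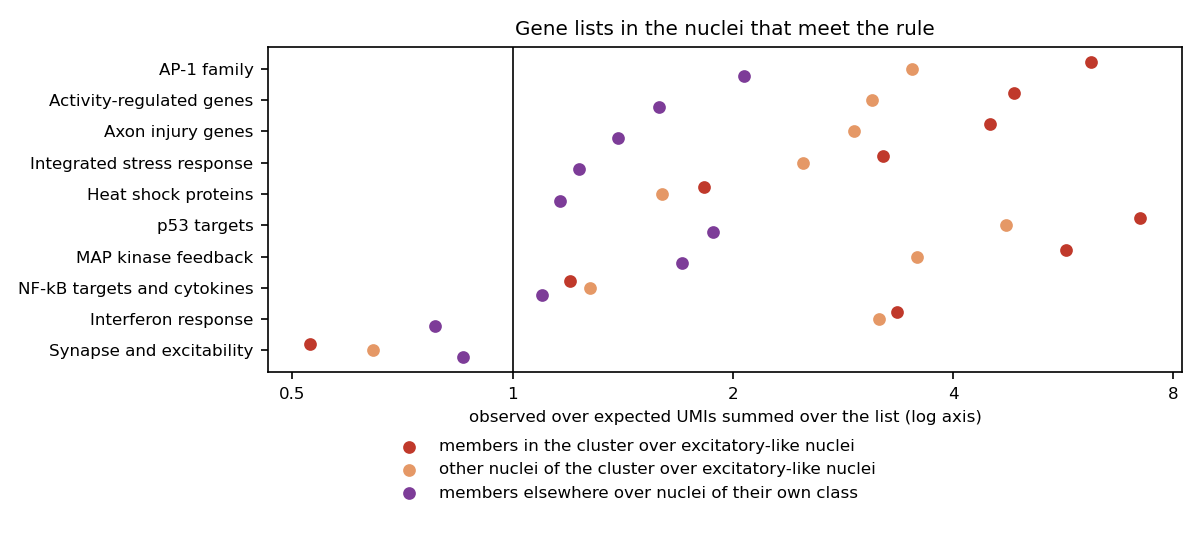
Observed over expected UMIs summed over each gene list, on a log axis, for members in the cluster and its other nuclei over excitatory-like nuclei and for members elsewhere over other nuclei of their class and library. Over excitatory-like nuclei, the p53 list has the highest ratio in members of the cluster. The synapse list lies below 1 in all 3 comparisons, and members elsewhere lie nearer 1 in most lists.

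Tnfrsf12a, the receptor of the cytokine Tweak, had the highest ratio of members of the cluster over excitatory-like nuclei among genes past 2-fold outside the rule, 25.7 (82 against 3.19 UMIs). It was followed by Irs2, an adaptor of the insulin receptor, at 24.9 (528 against 21.2 UMIs) and Sertad1 at 23.6. Irs2 stood at 27.0 per 10000 in members of the cluster, from 13.2 to 47.6 by library, with excitatory-like nuclei from 0.954 to 1.21. Tiparp, a poly(ADP-ribose) polymerase, had a ratio of 20.9, Stk40 of 15.6, Cited2 of 12.7, and Prkg2 of 11.7. Pdp1, a phosphatase that activates pyruvate dehydrogenase, had the most UMIs among the leading genes after Egr1, with 678 where 63.6 were expected (10.7). Naf1, Arl5b, 2410006H16Rik and Mapk4 had ratios between 9.63 and 10.4.

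At the other end of this ranking, Cck, a neuropeptide, had the lowest ratio, 0.186 (40 against 215 UMIs), with Gabbr1, a GABA-B receptor subunit, at 0.189 and Syt1, the calcium sensor of synaptic vesicles, at 0.207. Syt1 stood at 7.06 per 10000 in members of the cluster (5.08 to 8.88 by library), 13.6 in its other nuclei and 34.3 in excitatory-like nuclei (31.7 to 36.3). Chgb, a secretory granule protein, had 0.218, Cd47 0.218, Psap 0.231, Ctsb 0.238, Snhg11, a neuronal noncoding RNA, 0.256, Timp2 0.256 and Sv2b 0.256. The synapse and excitability list had 0 of 11 genes past 2-fold higher and 5 lower, among them Gria1, Kcnq3 and Syt1. All genes compared gave 16.2% higher and 5.73% lower. Summed levels of the list were 79.6, 97.7 and 152 in members of the cluster, its other nuclei and excitatory-like nuclei. The list also summed to 79.4 in myeloid nuclei, 78.7 in oligodendrocyte precursors and 76.3 in astrocyte-like nuclei. It was lower in lymphocytes (42.9), oligodendrocytes (38.1) and vascular-like nuclei (19.8). The level in members of the cluster thus did not exceed what classes other than neurons reached by much. Gria2, a subunit of AMPA receptors, was closer, at 19.9 against 29.7.

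Within the cluster, members and other nuclei differed by degree. Of 1668 genes, 5 (0.3%) were past 2-fold higher in members and 1 (0.06%) lower, with a median ratio of 1.11. The higher ones were Nr4a2, Nr4a3, Fosl2, Dot1l and Zfp655, and ratios were 2.96 for Nr4a2, 2.76 for Fosl2, 2.61 for Nr4a3 and 2.56 for Dot1l. Over the list genes the median ratio was 1.46. Heat shock genes summed to 1.14 times, interferon response genes to 1.04 times and NF-kB targets to 0.959 times the level expected. These lie near or under the median of all genes. The other response lists lay between 1.28, for the integrated stress response, and 1.74, for AP-1 genes. Egr1 had a ratio of 1.54 and was higher in 10 of 10 libraries. The excitatory list, at 0.801 of the level expected, and the synapse list, at 0.823, were lower in members.

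Outside the cluster few genes set members apart. Of 1320 genes, 1 was past 2-fold higher than in other nuclei of the same class and library (0.0758%) and 0 were lower, with a median ratio of 1.05. The gene was Irs2, with 43 UMIs and a ratio of 2.78. Of 30 list genes with enough UMIs 0 were past 2-fold in every library, and several libraries held few such members, with 2 in library 2-2 and 3 in library 2-4. Their median ratio was 1.54, with AP-1 genes summing to 2.07 times, p53 targets to 1.88 times and MAP kinase feedback genes to 1.71 times the level expected. The p53 ratio was 1.26 without library 2-2 and its 2 such members, which left 206 of 338 UMIs. Egr1 stood at 7.76 per 10000 in these nuclei, with a ratio of 1.97, and Cdkn1a at 7.59, of which library 2-2 gave 64 of 131 UMIs. Mitochondrially encoded transcripts were 0.424% of UMIs in members elsewhere, 0.0824% in members of the cluster and 0.0767% in excitatory-like nuclei. The 733 such UMIs of members elsewhere were 1.00 times those expected from their own classes and libraries.

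Members held more viral UMIs than other nuclei. Members had a mean of 69.6 viral UMIs (median 26) and other nuclei 15.3 (median 4). No viral UMI was found in 2.81% of members and 14.0% of other nuclei, and 15.8% of members but 2.37% of others had 100 or more. Members in the cluster had a mean of 74.8 and a median of 29.5, the other nuclei of the cluster 36.8 and 15, members elsewhere 57.4 and 16, and excitatory-like nuclei 15.4 and 5. These values are not corrected for depth.

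At equal depth the whole cluster stood above excitatory-like nuclei. Nuclei were compared within bins of non-viral UMIs (up to 400, 600, 900, 1300, 2000 and above) and within a library. Members in the cluster had 4.49 times the mean viral UMIs of excitatory-like nuclei, 74.8 against 16.7. By library the ratio had its lowest value, 2.30, in library 1-1, a median of 4.23 and its highest, 9.93, in library 2-2, so that it was above 1 in 10 of 10 libraries. It was 3.41 in libraries 1-1 to 1-5 and 6.63 in libraries 2-1 to 2-5. The number of distinct viral barcodes was 3.58 times that of excitatory-like nuclei. The other nuclei of the cluster, which did not meet the rule, had 4.02 times the level of excitatory-like nuclei, from 3.14 to 8.64 by library. The ratio of members in the cluster was 2.77 when the 1% of nuclei with the most viral UMIs were left out.

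Within a class the excess of members varied between libraries. Against other nuclei of the same class, library and depth bin, the 266 members that had such nuclei held 1.28 times the expected viral UMIs, from 0.119 in library 2-5 to 3.601 in library 2-2. Within the cluster the ratio was 1.10 for the 182 of 200 members that had such nuclei, from 0.104 to 3.75 in the same libraries. It was above 1 in 7 of 10, with 0.831 in library 1-1 and 0.990 in library 1-5. In library 2-2 a single member had 1902 viral UMIs, and the next had 296. In library 2-5 a single nucleus of the cluster that did not meet the rule had 1135, and the next had 70. There the medians lay the other way from the means, 14 in members of the cluster and 7 in its other nuclei. The ratio for all members was 1.13 without library 2-2 and 1.53 without library 2-5, and it was 1.02 when the 1% of nuclei with the most viral UMIs were left out. Of the 85 members elsewhere, the 84 that had such nuclei held 2.34 times the expected load, from 0.876 to 3.803 and above 1 in 8 of 10 libraries. The 49 among them in excitatory-like nuclei had 2.19 times. Leaving out the same 1% of nuclei gave 1.37 for members elsewhere.

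**Figure D4:**
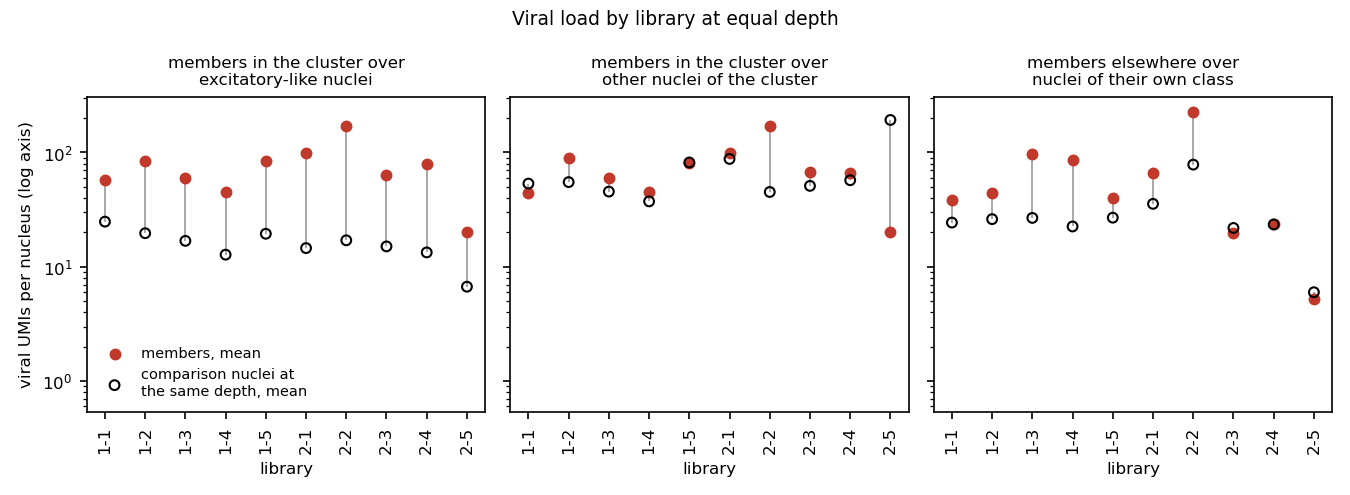
Mean viral UMIs per nucleus of members (filled) and of the comparison nuclei at the same depth (open) in each library, on a log axis, for 3 comparisons. Members in the cluster exceed excitatory-like nuclei in 10 of 10 libraries, and they exceed the other nuclei of the cluster in 7 of 10, lying below them in libraries 1-1, 1-5 and 2-5.

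Read the other way, nuclei with more viral UMIs met the rule more often. Of 4491 nuclei without viral UMIs 0.178% (0.0769 to 0.351%) were members. The share was 0.265% with 1 to 4 viral UMIs, 0.855% with 5 to 19, 2.08% with 20 to 99 and 5.58% (4.10 to 7.40%) with 100 or more. Nuclei with more viral UMIs were also deeper, with a median of 480 non-viral UMIs in the first group and 1462.5 in the last. After thinning to 500 non-viral UMIs the shares were 0.138, 0.0314, 0.311, 0.782 and 2.12%. The cluster took 0.690% of the nuclei without viral UMIs and 11.8% of those with 100 or more. Outside the cluster 1.83% of nuclei with 100 or more viral UMIs were members, and after thinning 1 of 680 was.

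**Figure D5:**
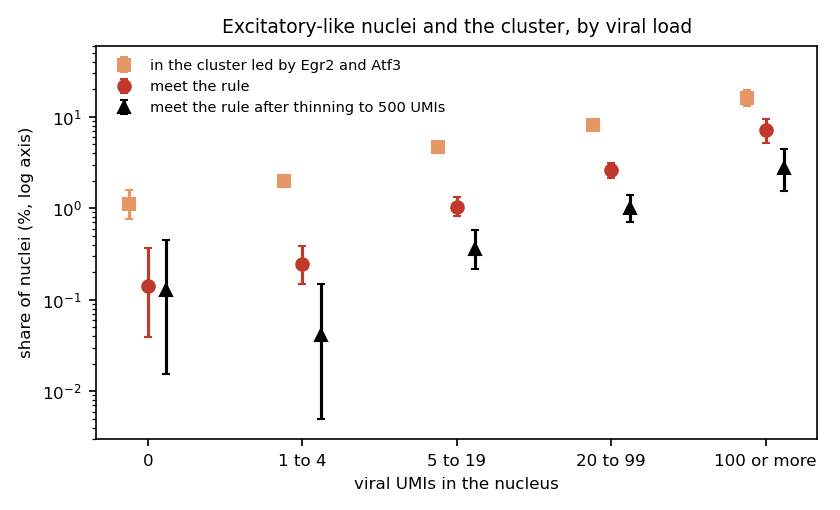
Share of excitatory-like nuclei and nuclei of the cluster, on a log axis, that were in the cluster, met the rule, or met it after thinning to 500 non-viral UMIs, by viral UMIs in the nucleus, with exact 95% counting intervals. The share in the cluster goes from 1.11% at 0 viral UMIs to 16.1% at 100 or more, and the share that met the rule from 0.143% to 7.13%.

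Per 1000 non-viral UMIs, members of the cluster had 76.6 viral UMIs, its other nuclei 77.3 and barcodes with 200 or fewer UMIs 75.1, while excitatory-like nuclei had 16.4. The other nuclei of the cluster had a median of 350 UMIs, under that of excitatory-like nuclei, at 823. Egr1 stood at 7.10 per 10000 in these low barcodes, 44.0 in the other nuclei of the cluster and 6.05 in excitatory-like nuclei. In the comparison with excitatory-like nuclei limited to nuclei with at most 20 viral UMIs, 10 of 23 list genes were past 2-fold higher, with a median ratio of 4.28, and all genes gave 34 of 210 (16.2%). The part that depth, free RNA and viral load had in the levels of the cluster was not tested.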

How the data were processed

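snRNA-Seq libraries were made by the authors on the inDrops platform, with PCR enrichment of viral transcripts, and mapped with their pipeline to GRCm38, extended by contigs of the viral barcodes. The deposited counts are UMIs per nucleus, not normalized. ATAC-Seq reads were trimmed (Trimmomatic 0.33), aligned to mm10 (Subread 1.4.6-p3) and counted by the authors on reference regions with featureCounts, and the deposited peak lists, called per replicate by MACS2 and HOMER, give −log10 q-values. Of a deposited table of marks (0 or 1 per region) only the region positions were used. A table of the authors' own enhancer specificity values was not used.

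Of 47348 barcodes, 32335 with over 200 UMIs outside the 1164 viral barcode columns were kept. The column Vector, which followed the viral barcode UMIs (r = 0.993 over 32335 nuclei that share libraries), counted for that filter and not for depth, genes or clusters. Clusters (Seurat 5.3.0, 30 components, resolution 1.5, without rule and response genes) were named from fixed markers by a rule set after the clusters were seen. No doublets were removed. Expected UMIs came from other nuclei of the same class and library. Each unnamed cluster counted as its own class. A gene needed 30 UMIs in members and 3 expected. Other versions were R 4.3.3, edgeR 4.0.16 (TMM factors only), Python 3.11.15, scanpy 1.11.5 and scipy 1.17.1. On simulated counts, the comparison of members with other nuclei recovered 93 of 100 genes raised 3-fold and 27 of 100 lowered to the same degree, with 0 false calls among 3314 genes.

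The text names the rule genes, genes past 2-fold with the 20 highest and 10 lowest ratios, up to 4 genes of each response list by UMIs, class markers and genes that lead the cluster. The comparison with excitatory-like nuclei and its genes, and other genes named, were chosen after values were seen. Members and lists were chosen with earlier results of these data known. Reads counted in the deposited reference regions were 1801883 to 2256073 per ATAC-Seq sample, which is not the sequencing depth. Values of 3 single genes of the lists are not reported here.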

Additional observations from a re-analysis of the deposited data

Results flagged for a closer look

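In 3 of 15 sets of values by library, the most extreme of the 10 libraries lay far from the others by Dixon's criterion, which chance alone flags in about 1 of 20 sets. The viral load of all members over other nuclei of their class at equal depth was 3.601 in library 2-2, and the same ratio within the cluster led by Egr2 and Atf3 was 3.75 in that library, where 1 member held 1902 viral UMIs. Egr1 in members of the cluster stood at 115 UMIs per 10000 in library 1-5, with 220 UMIs over 22 nuclei, against 52.3 to 82.7 in the other libraries. No cause was tested.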

How the results depend on the processing

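The share of nuclei that met the rule, 0.881%, was 1.32% with at least 2 UMIs, 0.600% with at least 4, 1.48% with 3 UMIs of any gene and 0.379% after thinning to 500 UMIs. It was 0.424, 0.606 and 0.359% without Egr2, Gadd45b or Jun, and 0.849 to 0.913% without 1 library each. The share of members in the cluster (70.2%) was 87.3 and 89.6% after thinning to 300 and 500 UMIs, and 68.6 to 71.3% without 1 library each. The share of excitatory-like nuclei that met the rule (0.230%) was 0.0165 and 0.0263% after the same thinning, and 0.206 to 0.255% without 1 library each. The share of the cluster (21.01%) was 10.0% after thinning to 300, 41.2% after thinning to 1000, 25.8% with response genes kept in the clustering, and 20.6 to 21.4% without 1 library each. With response genes kept, the cluster held 794 nuclei, of which 717 (90.3%) were in the cluster described, 75.3% of it.

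The 7 genes past 2-fold in members were 12 with means by depth bin (2 of the 5 higher genes among them), 13 with a minimum of 10 UMIs, 0 of 1005 tested among nuclei with at most 20 viral UMIs (126 members), and 7 to 13 without 1 library each (13 without library 2-3, 12 without 2-1, 11 without 1-4). Chosen after seeing the data, the comparison with all unnamed clusters pooled gave 140, that without a minimum of UMIs 146, that of members in the cluster with excitatory-like nuclei 364 (360 at equal depth, 1152 without a minimum, most of them lower), and that of members outside the cluster 1. The 2 list genes past 2-fold were 29 in the cluster over excitatory-like nuclei (30 at equal depth), 0 outside the cluster and still 2 without a minimum. The viral ratio of all members, 1.28, was 2.32 without correction for depth, 2.66 with unnamed clusters pooled, 4.49 for the cluster over excitatory-like nuclei, 2.34 outside the cluster and 1.13 to 1.53 without 1 library each. In these settings the reference nuclei changed, which changes what is compared. The summed accessibility of the rule genes, 142.9 CPM, stayed between 138.5 and 147.4 without 1 sample each and was 143.3 with TMM scaling. No paired analysis was possible because the ATAC-Seq values are given per sample as a description, compare no groups and come from no test.

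Members were few in single libraries (18 to 41), free RNA and doublets were not removed, and genes under 30 UMIs in members entered only the settings with a lower minimum or none. Without injected and uninjected animals side by side, the response to injection could not be measured.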
